A study of Mus musculus with 8 samples.

Results

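Accessible chromatin was described at the genes of 10 chromatin and DNA methylation regulators, *Tet2*, *Tet3*, *Dnmt3a*, *Dnmt3b*, *Ezh1*, *Ezh2*, *Jarid2*, *Asxl1*, *Smarca4* and *Chd4*, in mouse multipotent progenitors. An ATAC-seq peak, a stretch of DNA into which the Tn5 transposase inserted often, went to the gene whose transcript was nearest, provided that the middle of the peak lay within that transcript, at most 20 kb before it or at most 10 kb after it. This gave 59 of 87642 peaks in MPP3 cells and 66 of 86952 peaks in MPP4 cells. The 10 genes are among 27654 genes that received a peak in either cell type. The list was put together by function, except that *Jarid2* was chosen by its measured gain of accessibility in Ebf1-KO cells of both types, in the deposited comparison of genotypes. That comparison is not used here, so the gain is neither shown nor tested.

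The libraries came from 5000 sorted bone marrow cells each of C57BL/6 mice. There were 8 in all, 2 for each of the groups MPP3 WT, MPP3 Ebf1-KO, MPP4 WT and MPP4 Ebf1-KO. Both genotypes carried floxed *Ebf1* alleles (Ebf1fl/fl) according to the labels, and KO mice in addition carried 1 Cre allele at *Tie2* (Tie2Cre +/cre), where WT mice had none (Tie2Cre +/+). The design text instead names Cre carriers with wild-type *Ebf1* as controls, so the control genotype is uncertain. The *Tie2* promoter drives Cre in endothelial and blood cells. Mice were 8 weeks old in the MPP3 WT group, 8 and 9 weeks in the MPP3 Ebf1-KO group, 9 weeks in the MPP4 WT group and 8 weeks in the MPP4 Ebf1-KO group, and 1 of the MPP4 WT mice was male while the others were female. Both gates took lineage-depleted LSK cells (Lin-, Sca1+, Kit+) that were CD150- and CD48+, and the MPP4 gate also asked for Flt3, whereas the labelled MPP3 gate names no exclusion of Flt3+ cells.

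The value of a peak is the authors' mean log2 CPM (fragment counts scaled to library size) over the 4 libraries of a cell type, both genotypes together, so a value of 0 stands for 1 CPM. Values of single libraries were not analysed here, and therefore no spread between mice, test or p-value accompanies a level or a difference below. The means were not split by genotype here, and the part of age and sex in differences between the cell types was not tested. The sequencing depth per library is unknown from the tables, although the methods name 50 M reads as the aim. The median level was 2.24 over all MPP3 peaks and 2.35 over all MPP4 peaks.

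As background, the methyltransferases DNMT3A and DNMT3B place new methyl groups on cytosine in CpG dinucleotides, and the TET enzymes oxidize 5-methylcytosine as a step toward its removal. Polycomb repressive complex 2 (PRC2) methylates lysine 27 of histone H3 through EZH1 or EZH2, and JARID2 is an accessory subunit that helps the complex bind chromatin. ASXL1 is the partner of the deubiquitinase BAP1, SMARCA4 (BRG1) is the ATPase of the nucleosome remodeler BAF, and CHD4 is the ATPase of the NuRD complex, which joins remodeling to histone deacetylation. *Dnmt3a*, *Tet2* and *Asxl1* are well known from blood formation, since mutations in their human counterparts let blood stem cell clones expand.

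The sequences on which the differences below turn were read from GRCm38 (mm10), on the plus strand where no other strand is given. The first 300 bases of the strongest peak of the set, an intronic *Jarid2* peak at chr13:44869489-44870098, are shown because most of the peak resembles other places of the genome. Capitals mark the stretch that aligned elsewhere.
Jarid2 intronic peak, chr13:44869489-44869788: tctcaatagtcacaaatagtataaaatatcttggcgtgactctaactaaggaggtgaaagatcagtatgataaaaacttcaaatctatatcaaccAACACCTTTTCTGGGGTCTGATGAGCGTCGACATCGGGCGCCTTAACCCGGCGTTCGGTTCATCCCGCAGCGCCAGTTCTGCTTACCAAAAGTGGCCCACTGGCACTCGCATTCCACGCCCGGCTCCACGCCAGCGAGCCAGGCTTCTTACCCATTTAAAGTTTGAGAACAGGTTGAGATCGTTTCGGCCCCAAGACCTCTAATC
The next sequences belong to the other peaks that stood at least 2-fold higher in MPP3 cells. In the upstream *Ezh1* peak, capitals mark the PU.1-type motif GGAAGT on either strand. In the intronic *Asxl1* peak they mark the bases that the shorter MPP4 peak covers. In the intronic *Smarca4* peak they mark bases that the assembly masks as repeats.
Ezh1 upstream peak, chr11:101232200-101232399: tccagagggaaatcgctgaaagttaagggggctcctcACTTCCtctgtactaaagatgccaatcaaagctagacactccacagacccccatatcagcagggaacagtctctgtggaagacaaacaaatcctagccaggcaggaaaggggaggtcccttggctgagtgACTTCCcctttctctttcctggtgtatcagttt
Asxl1 intronic peak, chr2:153350787-153351086: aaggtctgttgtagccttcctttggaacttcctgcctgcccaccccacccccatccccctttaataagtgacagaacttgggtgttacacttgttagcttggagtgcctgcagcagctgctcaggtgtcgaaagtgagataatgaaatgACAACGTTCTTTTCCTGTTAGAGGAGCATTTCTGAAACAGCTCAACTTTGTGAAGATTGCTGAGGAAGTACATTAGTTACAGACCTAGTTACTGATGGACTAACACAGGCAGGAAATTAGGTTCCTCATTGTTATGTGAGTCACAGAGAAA
Smarca4 intronic peak, chr9:21626630-21626844: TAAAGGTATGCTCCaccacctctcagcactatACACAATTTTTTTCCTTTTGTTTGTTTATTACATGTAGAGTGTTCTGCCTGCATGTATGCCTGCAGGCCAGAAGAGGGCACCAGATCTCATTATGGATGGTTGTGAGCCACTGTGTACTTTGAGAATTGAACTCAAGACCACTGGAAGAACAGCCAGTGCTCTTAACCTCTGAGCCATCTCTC

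The median level of the member peaks was 2.87 for MPP3 and 2.07 for MPP4, above and below the 2.24 and 2.35 of all peaks. In MPP3 cells, 17 of the 59 (28.8%) were promoter peaks, centered no more than 1 kb from a start, beside 26.8% of all peaks, and in MPP4 cells 21 of the 66 (31.8%) did, beside 27.1%. Their median was 4.78 in MPP3 and 4.10 in MPP4 cells, whereas the distal member peaks, those farther from any start, had medians of 2.096 and 1.56. Introns held the center of 43 MPP3 and 48 MPP4 member peaks.

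The number of peaks per gene ranged from 1 to 17. *Jarid2* had 12 peaks in MPP3 and 17 in MPP4 cells, *Dnmt3a* 14 and 16, and *Tet3* 8 and 9. *Smarca4* had 7 and 6, *Chd4* 5 and 3, *Ezh1* 4 and 5, *Tet2* 4 and 4, *Ezh2* 3 and 2, *Dnmt3b* 1 and 3, and *Asxl1* 1 in each. Peaks in these windows also went to neighbors that were closer: without competition between genes the windows held 91 MPP3 and 102 MPP4 peaks. The count of a gene thus depends on what lies next to it. For *Asxl1*, 8 MPP3 peaks went to 4 neighbors, among them the peak over the *Asxl1* start itself.

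**Figure D1:**
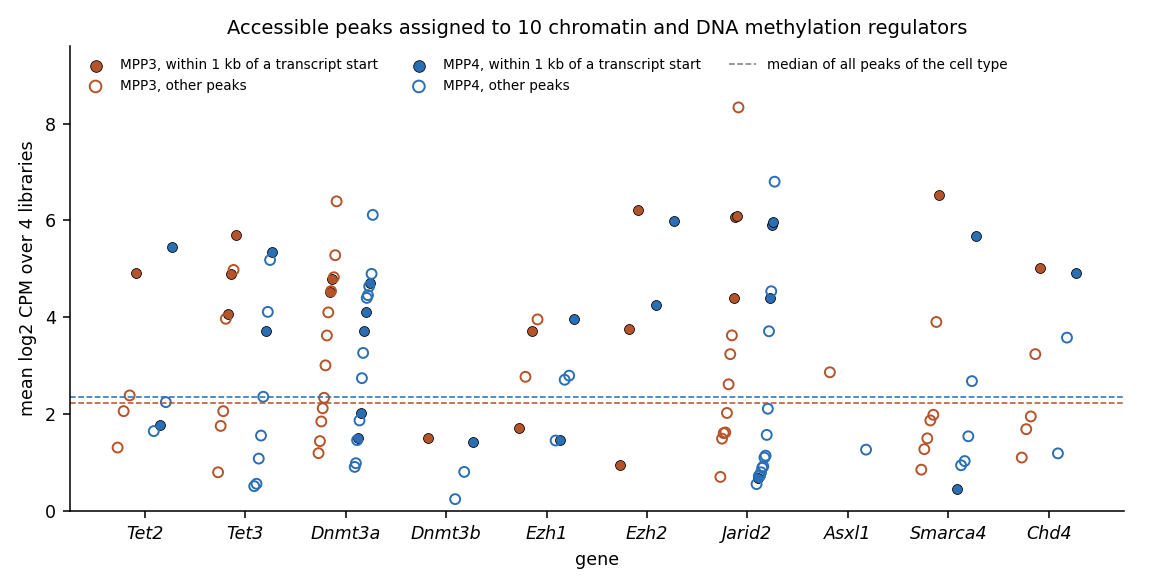
Mean log2 CPM (y axis) of each peak assigned to the 10 genes (x axis), MPP3 in brown and MPP4 in blue; each point is 1 peak, filled within 1 kb of a transcript start and open elsewhere, and dashed lines are the medians over all peaks, 2.24 and 2.35. The open *Jarid2* point at 8.33 in MPP3 and 6.80 in MPP4 cells stands above the other members.

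*Dnmt3a* (chr12:3806007-3914443, plus strand) had peaks before its outermost start, near several starts and deep in its introns. The strongest of them was intronic, at chr12:3870840-3871430, with a level of 6.39 in MPP3 and 6.12 in MPP4 cells, and ranked 1499th of all MPP3 peaks and 1990th of all MPP4 peaks. Next in level was an intronic peak 1.15 kb from a start, at chr12:3892675-3893120, with 5.28 in MPP3 and 4.90 in MPP4 cells. The peak nearest the outermost start, chr12:3806229-3806738, had 4.78 and 4.71. An upstream peak 14.1 kb before the start, chr12:3791768-3792134, had 4.83 and 4.64, a level like that of the promoter.
The largest difference at *Dnmt3a* was at an intronic peak, chr12:3823543-3823851, with 2.34 in MPP3 and 3.27 in MPP4 cells. After centering on all peaks, as explained below, it stood 0.89 higher in MPP4 cells (0.22 per kb of peak, as the MPP4 peak is longer), while the lowest of the 12 *Dnmt3a* peaks that matched between cell types was at -0.49. A still stronger peak inside *Dnmt3a*, chr12:3855684-3856467, lay closest to the antisense gene *Dnmt3aos* and so is no member. It had 6.99 in MPP3 and 7.52 in MPP4 cells.

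*Dnmt3b* (chr2:153649450-153687730, plus strand) had weak assigned peaks. That of MPP3 cells, chr2:153668868-153669052, lies 410 bases before a start and had 1.51, against 1.42 at the matching MPP4 peak. Further MPP4 peaks of *Dnmt3b* had 0.81 and 0.25. The peak over its outermost start, chr2:153649217-153649778, was closest to the antisense gene *Dnmt3bos*. It had 4.14 in MPP3 and 4.199 in MPP4 cells, so the low level of the assigned peaks is not that of the *Dnmt3b* promoter.

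*Tet2* (chr3:133463679-133545139, minus strand) had 1 strong peak, near its start. In MPP3 cells this peak spanned 589 bases, chr3:133544199-133544787, with a level of 4.92, and in MPP4 cells 1084 bases, with 5.44. The longer MPP4 peak also covers a second MPP3 peak, chr3:133544881-133545301, which lay closest to the neighbor *Gm42567* and had 4.23. On a per-kb scale the *Tet2* promoter peak had 5.68 in MPP3 and 5.33 in MPP4 cells, and the centered difference turns from 0.49 to -0.34 on that scale. Inside the gene, an intronic peak at chr3:133525760-133525928 had 1.32 in MPP3 and 2.25 in MPP4 cells, whereas another at chr3:133530745-133531065 had 2.39 and 1.65. By level the pair differed in opposite directions. Per kb of peak the centered differences were 0.03 for the first, whose MPP4 peak is longer, and -0.52 for the second. A peak downstream of *Tet2* in MPP3 cells (2.07) and one near an internal start in MPP4 cells (1.78) had no match.

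*Tet3* (chr6:83362373-83459084, minus strand) was accessible near several starts and far inside the gene. The strongest peak, chr6:83456298-83457064, lies 0.289 kb before a start and had 5.70 in MPP3 and 5.35 in MPP4 cells. The peak at another start, chr6:83441463-83441927, had 4.90 in MPP3 cells and 4.67 at the matching MPP4 peak, which was assigned to *B230319C09Rik*. A distal intronic peak 59.7 kb from its start, chr6:83381647-83382210, was close to these in level, with 4.98 and 5.18. The differences at the 7 matched *Tet3* peaks ran from -0.39 to 0.26 after centering, the narrowest range of the genes with at least 3 matched peaks.

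The catalytic subunits of PRC2 differed in level. *Ezh2* (chr6:47530139-47595341, minus strand) had a promoter peak at chr6:47594904-47595579 with 6.21 in MPP3 and 6.00 in MPP4 cells. A second peak just inside the gene, chr6:47594173-47594498, had 3.76 and 4.25. *Ezh1* (chr11:101191115-101226463, minus strand) had a weaker promoter peak at chr11:101226192-101226591, with 3.72 and 3.96. Per kb of peak, the scale on which genes can be compared, the *Ezh2* promoter had 6.77 and 6.62 and the *Ezh1* promoter 5.04 in either cell type. The strongest *Ezh1* peak of MPP3 cells lay 5.84 kb before the start, at chr11:101232025-101232576, with 3.96 in MPP3 and 2.71 in MPP4 cells. Its sequence, printed above, has a GC content of 48.9% and holds 2 PU.1-type matches.

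*Jarid2* (chr13:44729474-44921643, plus strand), the longest of the genes, carried a row of strong peaks near its first starts. The peak at chr13:44730411-44730891 had 6.08 in MPP3 and 5.97 in MPP4 cells, and that at chr13:44733398-44734167 had 6.09 and 5.92. Between them, chr13:44731196-44731375 had 4.41 and 4.40. These promoter peaks had centered differences from -0.21 to -0.05. In the introns, chr13:44799916-44800386 had 3.24 and 3.71 and chr13:44819352-44819737 had 3.63 and 4.54, both higher in MPP4 cells. The 6 MPP4 peaks of *Jarid2* with no MPP3 match were weak, with levels between 0.56 and 1.11.

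**Figure D2:**
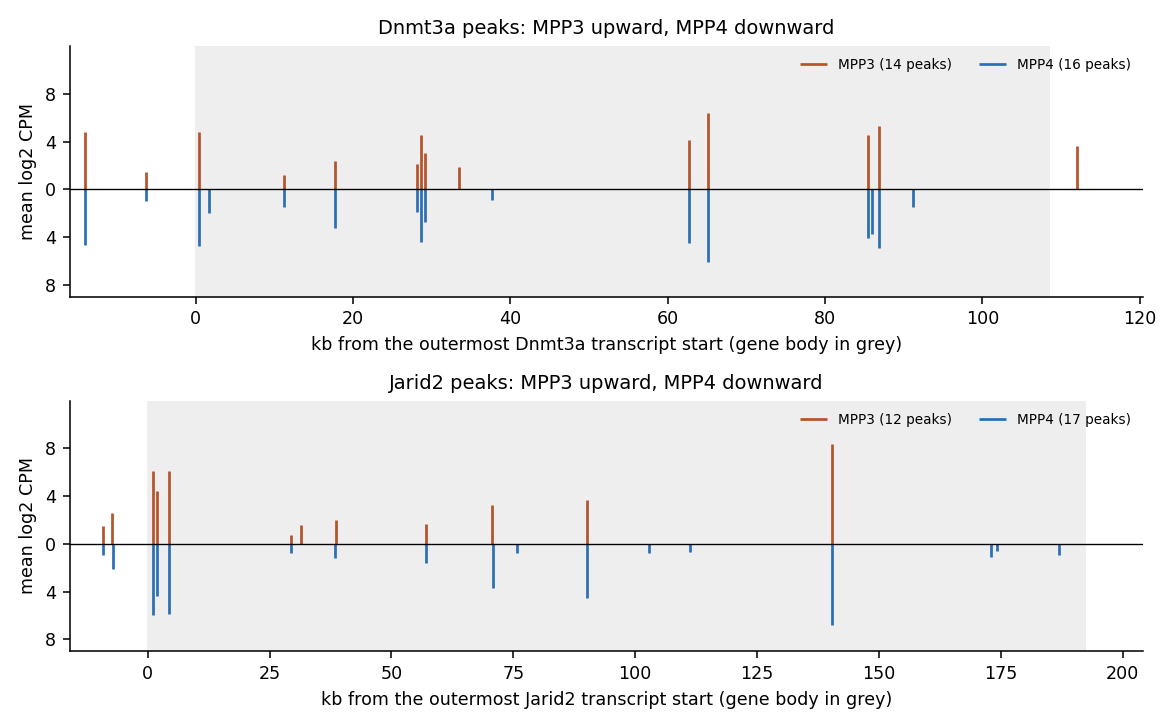
Peaks of *Dnmt3a* (upper panel) and *Jarid2* (lower panel) by distance from the outermost transcript start (x axis, kb), with the mean log2 CPM (y axis) drawn upward for MPP3 and downward for MPP4 cells; the gene body is grey. *Dnmt3a* has many peaks of like height in both cell types, while the tallest *Jarid2* peak lies deep in the gene and is shorter in MPP4 cells (6.80) than in MPP3 cells (8.33).

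The tallest member peak of either cell type was the intronic *Jarid2* interval printed above. It had the same borders in both tables, a length of 610 bases, and a level of 8.33 in MPP3 and 6.80 in MPP4 cells. It ranked 25th of all MPP3 peaks and 548th of all MPP4 peaks. After centering it stood 2.97-fold higher in MPP3 cells. Its levels average KO and WT libraries, and so include the KO libraries in which the gain of *Jarid2* led to its choice. The part of that choice in the rank and the difference was not tested. Of the 2616 matched peaks with an MPP3 level of at least 6, 86 were at least 2-fold higher in MPP3 cells, and 16, this peak included, differed by as much.

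In sequence the *Jarid2* interval is unlike a typical intronic peak. Its CpG content is 1.08 times that expected from its C and G content, against a median of 0.204 at distal MPP3 peaks, with a GC content of 53.8%. Stretches of its bases 96 to 559 aligned over at least 100 bases and with at least 90% identity at 18 other places on 13 chromosomes, with identities from 90.9 to 98.9%. The aligned stretch reads as part of the large (28S) ribosomal RNA on the opposite strand, which was recognized from background knowledge and not computed, as a full 28S gene was not used here. Among the other MPP3 member peaks, 3 had any such match, with alignments of at most 182 bases: 2 *Smarca4* peaks and 1 *Chd4* peak, each at least 56.4% repeat-masked.

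The places similar to the *Jarid2* interval were then looked up in the peak tables, a step chosen after its sequence was seen. Of the 18, 7 overlapped an MPP3 peak, 7 an MPP4 peak and 10 none. The strongest was at chr12:99645213-99645675, where the peak had 5.81 in MPP3 and 4.35 in MPP4 cells. At chr14:104715774-104716084 the levels were 4.85 and 3.21, at chr15:86194869-86195324 they were 3.85 and 2.31, and at chr6:145932749-145933027 they were 3.33 and 1.87. At chr2:20899847-20900210 an MPP3 peak of 4.56 had no MPP4 peak. Each of the 6 places with a matched pair of peaks was lower in MPP4 cells, by 0.71 to 1.68 on the log2 scale after centering, and 4 were at least 2-fold lower. The median of these differences was -1.50, beside -1.57 at *Jarid2*. Whether fragments from other copies of this sequence enter the *Jarid2* value was not tested.

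**Figure D3:**
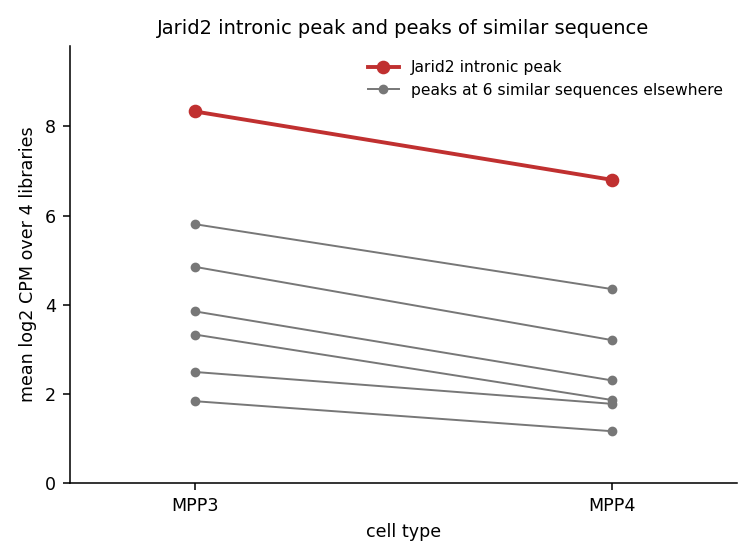
Mean log2 CPM (y axis) in MPP3 and MPP4 cells (x axis) of the *Jarid2* intronic peak (red) and of the peaks at 6 places elsewhere with at least 90% identity over 100 bases or more (grey); a line joins the matched peaks of a place. Each of the 7 lines falls from MPP3 to MPP4.

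*Asxl1* (chr2:153345829-153404007, plus strand) kept a single peak under the rule, in an intron 3.13 kb after a start. At chr2:153350714-153351161 it had 2.87 in MPP3 cells, and the matching MPP4 peak of 151 bases, within it, had 1.27. The peak over the *Asxl1* start, chr2:153345426-153345945, was closest to *2500004C02Rik* and had 5.96 in MPP3 and 5.85 in MPP4 cells. The centered difference of this promoter was -0.15, whereas the weak intronic peak stood 3.11-fold higher in MPP3 cells. Per kb of peak, which allows for the shorter MPP4 peak, the intronic difference was -0.01 on the log2 scale.

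*Smarca4* (chr9:21616169-21704230, plus strand) had a broad promoter peak. At chr9:21615741-21616703 it had 6.53 in MPP3 and 5.68 in MPP4 cells, and after centering it was 1.85-fold higher in MPP3 cells, the largest difference among the strongest promoter peak of each of the 10 genes. The 150 bases before its outermost start hold 17 CpG dinucleotides, and those before the outermost *Tet2* start 7. They are shown, CpG in capitals and each on its gene's strand, because these genes had the lowest and the highest difference by that measure. The *Tet2* stretch lies outside the MPP3 promoter peak of that gene. Over the whole MPP3 promoter peaks the order was reversed, with a CpG content 1.04 times that expected at *Tet2* and 0.86 times at *Smarca4*.
Smarca4, chr9:21616019-21616168, plus strand: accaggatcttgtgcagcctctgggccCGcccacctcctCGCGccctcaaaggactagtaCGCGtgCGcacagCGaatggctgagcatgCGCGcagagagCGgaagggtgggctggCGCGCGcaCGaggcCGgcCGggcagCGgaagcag
Tet2, chr3:133545140-133545289, minus strand: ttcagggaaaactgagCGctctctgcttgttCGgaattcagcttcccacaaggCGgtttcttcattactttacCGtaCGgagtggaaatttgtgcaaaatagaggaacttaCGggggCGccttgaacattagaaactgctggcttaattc
In an intron of *Smarca4*, chr9:21626630-21626844 had 1.99 in MPP3 and 0.95 in MPP4 cells, and 91.6% of its bases are masked as repeats. A nearby MPP3 peak of 899 bases, chr9:21625145-21626043, had 3.91 and no MPP4 match. Per kb of peak the difference at the repeat-masked interval was -0.94, short of 2-fold. The 4 matched *Smarca4* peaks were each lower in MPP4 cells.

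*Chd4* (chr6:125095981-125130591, plus strand) had no peak near a 2-fold difference. Its promoter peak, chr6:125095767-125096279, had 5.02 in MPP3 and 4.92 in MPP4 cells, and an intronic peak at chr6:125099355-125099629 had 3.24 and 3.58. The other 3 MPP3 peaks of the gene, with levels between 1.11 and 1.96, had no MPP4 match.

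To compare the genes with one another, the strongest peak within 1 kb of any start of a gene was taken, whichever gene it was assigned to, and its level divided by its length. In MPP3 cells the order by log2 CPM per kb, from the highest, was *Asxl1* (6.90), *Ezh2* (6.77), *Smarca4* (6.58), *Jarid2* (6.47), *Tet3* (6.08), *Chd4* (5.99), *Dnmt3a* (5.76), *Tet2* (5.68), *Ezh1* (5.04) and *Dnmt3b* (4.98). In MPP4 cells *Jarid2* came first with 7.07, from a different and shorter peak, and *Dnmt3b* last with 4.85. The shorter *Jarid2* peak had 7.13 per kb in MPP3 cells too, so the place of *Jarid2* in the order turns on which of its peaks is taken. The median over promoter peaks of all protein-coding genes was 5.51 in MPP3 and 5.44 in MPP4 cells. By these medians 8 of the 10 genes lay above in MPP3 cells, and *Ezh1* and *Dnmt3b* lay below. In MPP4 cells 7 lay above, since *Tet2* (5.33) was below as well. With no spread between libraries, neighbors in this order cannot be called different.

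**Figure D4:**
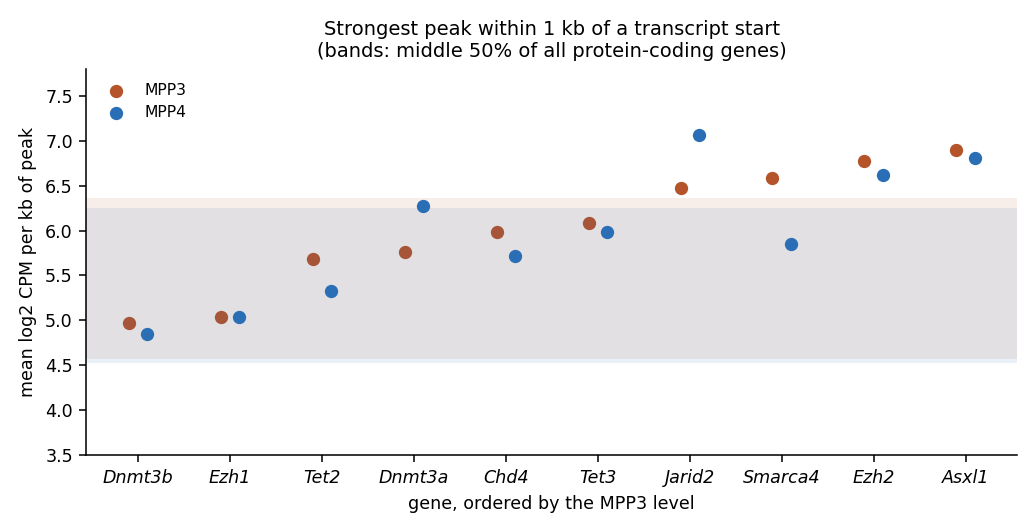
Mean log2 CPM per kb of peak (y axis) of the strongest peak within 1 kb of a transcript start for each gene (x axis, ordered by MPP3), MPP3 in brown and MPP4 in blue; bands hold the middle 50% of all protein-coding genes with such a peak. *Asxl1*, *Ezh2*, *Smarca4* and *Jarid2* lie above the MPP3 band, and *Ezh1* and *Dnmt3b* in its lower part.

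Most member peaks were found in both cell types. Of the 59 MPP3 member peaks, 47 (79.7%, 95% Clopper-Pearson interval 67.2 to 89.0%) overlapped an MPP4 peak by at least 1 base, beside 75.7% of all MPP3 peaks. Of the 66 MPP4 member peaks, 46 (69.7%, 57.2 to 80.4%) overlapped an MPP3 peak, beside 76.7% of all MPP4 peaks. These intervals cover counting error only. The peaks of 1 cell type were weak: 9 of the 12 unshared MPP3 members and 17 of the 20 unshared MPP4 members had a level below 2, beside 83.8% and 83.9% of all unshared peaks. Whether such a peak is listed depends on the depth of the merged libraries, and its absence from a table is no measurement of closed chromatin.

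At the 47 matched pairs, the difference between cell types was taken as the MPP4 minus the MPP3 level, centered on the median over all 66324 matched peaks (0.039). The tables were normalized separately, and the difference therefore says how a peak stood relative to the others. Of the 47 members, 4 were at least 2-fold higher in MPP3 cells, 1 each of *Asxl1* (centered difference -1.64), *Jarid2* (-1.57), *Ezh1* (-1.28) and *Smarca4* (-1.08), beside 4.12% of all matched peaks. None was at least 2-fold higher in MPP4 cells, beside 5.41% of all matched peaks. The 4 are distal peaks, 1 each from 4 genes, of which *Ezh1* and *Jarid2* encode subunits of PRC2. The *Jarid2* value includes the KO libraries by whose gain that gene was chosen. Just short of 2-fold were an intronic *Jarid2* peak, chr13:44767834-44768151 (-0.92), and, in the other direction, the intronic *Tet2* (0.90), *Dnmt3a* (0.89) and *Jarid2* (0.87) peaks described above. Per kb of peak these differences were -0.22 for the first *Jarid2* peak, 0.03 for *Tet2* and 0.22 for *Dnmt3a*, whose borders differ between the tables, and 0.91 for the second *Jarid2* peak.

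More matched member peaks lay below 0 than above it. Of the 47, 34 (72.3%) were below 0, with a median of -0.23, where 50.0% of all matched peaks are below 0 by construction. The count was 28 when centered in bins of GC content, 31 in bins of level and 35 per kb of peak. At the 16 member promoter peaks the median was -0.18, beside -0.15 at all promoter peaks, so that in this class members stood close to the rest. At the 31 distal member peaks the median was -0.24, beside 0.10 at all distal peaks. By gene, the medians were below 0 for *Asxl1* (-1.64), *Smarca4* (-0.63), *Dnmt3a* (-0.26), *Tet3* (-0.24), *Ezh1* (-0.15), *Jarid2* (-0.14) and *Dnmt3b* (-0.13), and above 0 for *Tet2* (0.49), *Ezh2* (0.10) and *Chd4* (0.08). Those of *Asxl1* and *Dnmt3b* rest on 1 pair each. Per kb of peak, the *Tet2* pairs had 0.03, -0.52 and -0.34, those of *Ezh2* 0.01 and -0.14, and those of *Chd4* -0.26 and 0.31. On that scale the medians of *Tet2* and *Ezh2* are not above 0, and the *Asxl1* difference is -0.01.

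**Figure D5:**
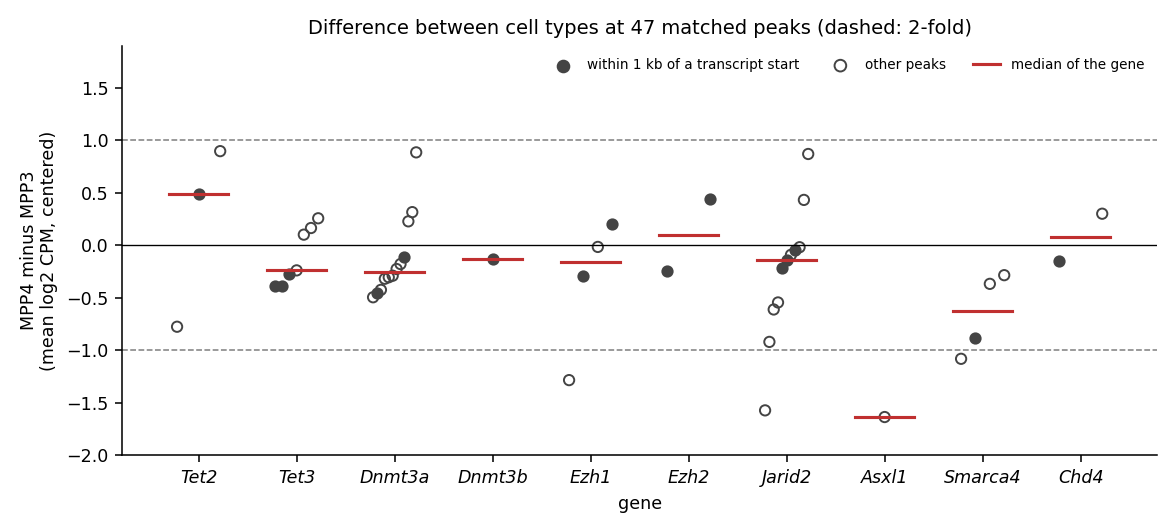
Centered MPP4 minus MPP3 difference in mean log2 CPM (y axis) at the 47 matched peaks of the 10 genes (x axis), filled within 1 kb of a transcript start and open elsewhere; red bars are the medians of each gene and dashed lines mark 2-fold. Open points of *Ezh1*, *Jarid2*, *Asxl1* and *Smarca4* lie below the lower line (-1.28, -1.57, -1.64 and -1.08), and none lies above the upper line.

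EBF1, the deleted factor, is a zinc-dependent DNA-binding protein that drives B cell development. Its consensus, searched as TCCCNNGGG or CCCNNGGGA on both strands, was found in 6 of 59 MPP3 member peaks (10.2%, 3.82 to 20.8%), beside 7.46% of all MPP3 peaks, and in 5 of 66 MPP4 member peaks (7.58%, 2.51 to 16.8%), beside 6.49% of all MPP4 peaks. The shares in all peaks lie inside the intervals of the members. The matches, with the 9 bases in capitals, are shown to let the reader see which genes hold them. Those of *Tet2*, *Jarid2* at its start and the first 2 of *Dnmt3a* lie in a member peak of both cell types, the others in one of MPP3 or MPP4 cells.
Tet2, intron near the start, chr3:133544769-133544797: cgcctctgtcTCCCGCGGGggccgcgtag
Jarid2, intron near a start, chr13:44730828-44730856: taggcggctcTCCCCCGGGccgggcgtcc
Dnmt3a, exon, chr12:3835202-3835230: cctccagcggCCCCGGGGAcaccagcagc
Dnmt3a, intron, chr12:3868661-3868689: accttgcgaaCCCCTGGGAatctaggtgg
Dnmt3a, downstream, MPP3, chr12:3918027-3918055: gaatgagaggCCCTGGGGAcaagccgggc
Smarca4, intron, MPP3, chr9:21625893-21625921: aaaaagcccaTCCCAGGGGtggatatagc
Jarid2, coding exon, MPP4, chr13:44902483-44902511: acaggtgctaTCCCTTGGGggggcgtcca
The intronic *Jarid2* interval, the *Ezh1* upstream peak, the *Asxl1* peak and the *Smarca4* peak at chr9:21626630-21626844 hold no such match. Among the other motifs, the E-boxes CAGGTG and CAGCTG were in 49.2% of MPP3 member peaks (35.9 to 62.5%), beside 38.8% of all, and the CTCF-type core CCCTC in 81.4% (69.1 to 90.3%), beside 65.0%. The PU.1-type GGAAGT was in 39.0% (26.6 to 52.6%), beside 36.3%, and the GATA-type AGATAA in 6.78% (1.88 to 16.5%), beside 11.52%. In MPP4 member peaks the E-boxes were in 43.9%, beside 40.0% of all, the CTCF-type core in 77.3%, beside 65.8%, the PU.1-type motif in 34.8%, beside 39.4%, and the GATA-type motif in 6.06%, beside 9.85%. MPP3 member peaks had a median length of 322 bases beside 273 over all MPP3 peaks. Within 200 bases around the center, the CTCF-type core was in 69.5% of MPP3 members (56.1 to 80.8%), beside 54.6% of all, and in 68.2% of MPP4 members (55.6 to 79.1%), beside 54.4%. At distal peaks alone it was in 73.8% of MPP3 members (58.0 to 86.1%), beside 60.1% of all. For MPP4 the distal share was 73.3% (58.1 to 85.4%), beside 61.3%. In this class the shares of all distal peaks lie inside the intervals.

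The partners of these regulators in the same complexes were described at their promoter peaks. The difference is that of the strongest MPP3 promoter peak of a gene and its MPP4 match. Over all protein-coding genes the median of 12101 such peaks was -0.21, with 75.2% below 0, 3.21% at least 2-fold higher in MPP3 cells and 0.777% at least 2-fold higher in MPP4 cells. The 10 regulators themselves had a median of -0.15, with 7 of 10 below 0 and none past 2-fold.

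In the DNA methylation list, 9 of 9 genes with a matched peak were below 0, with a median of -0.21 and none past 2-fold. The lowest was *Dnmt1*, the maintenance methyltransferase, with 6.05 in MPP3 and 5.56 in MPP4 cells, and the highest *Tet1*, with 4.21 and 4.24. *Dnmt3l*, a catalytically inactive relative of the methyltransferases, had a promoter peak in MPP3 cells (1.91) and none in MPP4 cells. For PRC2, 7 of 7 were below 0 with a median of -0.45 and none past 2-fold, from *Mtf2* (4.71 and 4.13) to *Aebp2* (5.60 and 5.64), which lay at 0 to 2 decimals. For PRC1, the complex that ubiquitinates histone H2A, 15 of 17 were below 0 with a median of -0.39, from *Pcgf6* (4.31 and 3.36) to *Cbx2* (3.66 and 3.95), and none was past 2-fold. The *Pcgf6* peak spanned 875 bases in MPP3 and 445 in MPP4 cells, and per kb its levels were close, 4.50 and 4.53. *Pcgf2* had no promoter peak.

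Of the ASXL and PR-DUB list, 5 of 6 were below 0, with a median of -0.28. *Mbd6* (6.83 in MPP3 and 5.84 in MPP4 cells) was at least 2-fold higher in MPP3 cells, *Foxk1* (3.86 and 4.16) was the highest, and *Asxl3* had no promoter peak. The *Foxk1* peak spanned 412 bases in MPP3 and 758 in MPP4 cells, and per kb its levels were 5.14 and 4.56, higher in MPP3 cells. In the BAF list, 17 of 20 were below 0 with a median of -0.31, and *Arid1b*, a large DNA-binding subunit, was at least 2-fold higher in MPP3 cells (6.03 and 4.95), whereas *Smarcd3* (3.51 and 4.0005) was the highest. The matched MPP4 peaks of *Mbd6* and *Arid1b* were shorter, and per kb the levels were 6.49 and 6.95 for *Mbd6* and 5.62 and 5.89 for *Arid1b*, higher in MPP4 cells. In the NuRD list, 11 of 12 were below 0 with a median of -0.32 and none past 2-fold, from *Mbd2* (5.56 and 4.81) to *Mta1* (2.098 and 2.28). *Rbbp7*, *Hcfc1* and *Ogt* lie on the X chromosome, of which the tables hold no peak. The medians of 5 of the 6 lists lay farther below 0 than that of all protein-coding promoters, and that of the DNA methylation list did not. The lists were not compared with promoters of like level or GC content, and the part of these in the medians was not tested. At the 47 member pairs, centering in bins of GC content moved the median from -0.23 to -0.15, and in bins of level to -0.14.

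Marker genes of the gates were read at the same promoter peaks to check the labels. *Flt3*, on which MPP4 cells were sorted, had 5.92 in MPP3 and 7.01 in MPP4 cells, and *Il7r*, the receptor of interleukin 7, 2.70 and 3.64. On the myeloid side, *Mpo* had 5.98 and 3.95, *Elane* 3.01 and 1.80 and *Csf2rb* 4.64 and 3.16, 3 of 7 matched MPP3 markers at least 2-fold higher in MPP3 cells. In the MPP4 list 1 of 5, *Flt3*, was at least 2-fold higher in MPP4 cells, while *Satb1* had 4.93 and 5.33, *Notch1* 4.79 and 4.81, and *Rag1* 1.96 and 1.75. Per kb of peak *Flt3* had 6.99 and 7.55 and *Elane* 4.95 and 4.37, both short of 2-fold. *Cebpa* (6.40 and 6.10), *Fcgr3* (5.45 and 4.69), *Irf8* (3.74 and 3.79) and *Gfi1* (4.48 and 4.80) stayed within 2-fold, the last pair on the MPP4 side, and *Dntt* and *Csf1r* had no promoter peak. *Kit*, which both gates require, had 5.54 and 5.63, while *Ly6a*, which encodes Sca1, had a promoter peak in MPP4 cells alone (1.15). *Cd48*, also required, had 2.767 and 2.303, and *Cd34*, listed with these genes, 4.762 and 5.156. *Slamf1*, which encodes the CD150 that both gates exclude, had a promoter peak of 1.417 in MPP3 and 1.327 in MPP4 cells. The strongest peak assigned to *Slamf1* had 3.588 and 4.21, above the strongest of *Cd48* (2.767 and 2.503). Levels at these genes thus did not all follow the gates. Of the marker lists of other lineages, a promoter peak was found for 3 of 4 B cell genes in MPP3 and 2 of 4 in MPP4 cells, 1 and 2 of 4 T cell genes, 1 of 4 erythroid genes in each, and 2 and 1 of 3 mature myeloid genes. The erythroid gene *Gata1* lies on the X chromosome and so could not be seen. *Cd3e*, *Cd8a*, *Klf1*, *Hba-a1* and *Ly6g* had no promoter peak in either table, while the B cell gene *Pax5* had one of 4.86 in MPP3 and 4.52 in MPP4 cells and *Cd79a* one in MPP3 cells (3.04). Some genes without a promoter peak had other peaks assigned to them. That of *Klf1* had 5.53 in MPP3 and 5.31 in MPP4 cells. The strongest of *Dntt* had 5.41 and 5.73, that of *Csf1r* 5.66 and 6.07, and that of *Cd3e* 2.75 in MPP4 cells alone. *Cd8a* and *Ly6g* had none. What other cell types contribute to a level was not tested, and fewer cells of a type and a lower signal per cell cannot be told apart in bulk samples.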

How the data were processed

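ATAC-seq libraries of MPP3 and MPP4 cells were processed by the authors: adapters were trimmed with Cutadapt 2.10, reads aligned to mm10, duplicates and fragments over 150 bp removed (deepTools), and peaks called with MACS2 2.2.7.1 on the merged replicates of each condition and joined per cell type. The methods also name a mapping quality cutoff at alignment and the removal of fragments in regions that attract reads. Per the file headers, the deposited log2 CPM of a peak is the mean that edgeR 3.32.0 gives over the 4 libraries of a cell type. The deposited tables also hold the fold change, F statistic, p-value and FDR of KO against WT, the authors' own comparison, which was not used. Few reads make weak peaks imprecise, and the depth of each library is not given in the sources used here.

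Peaks were assigned with GENCODE vM21 by the distance of their center to a transcript's start, center or end, within 20 kb upstream and 10 kb downstream. MPP3 peaks were matched to the MPP4 peak of largest overlap, at least 1 bp, and differences centered on the median. A difference of at least 1 on the log2 scale was called. Sequence came from GRCm38.p6 (RefSeq) and similar places from BLAST 2.17.0 (at least 100 bp and 90% identity). Steps were tested on simulated data and run in Python 3.11.15 with pandas 2.3.3 and scipy 1.17.1.

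Groups came from the sample labels. The members, the lists and the rule for named genes (the 10 genes, the gene with the highest and the lowest difference of each list, list genes with no promoter peak, and markers) were chosen with earlier results of these data known. No test was made, since no value per library was used. A list gene and a sequence are not reported here.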

Additional observations from a re-analysis of the deposited data

How the results depend on the processing

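Without competition between genes, 91 MPP3 and 102 MPP4 peaks were members, and at a mean log2 CPM of at least 2, 38 and 34, of which 92.1% and 91.2% were shared. The count of members at least 2-fold higher in MPP3 cells was 2 with levels per kb, where the *Asxl1* (-0.01) and *Smarca4* (-0.94) peaks fell short, and 2 at a mean log2 CPM of at least 2 in both tables, which leaves out the same pair. When protein-coding genes alone compete, 1 member, at the *Tet2* start, was at least 2-fold higher in MPP4 cells. Within 200 bp around the center, E-boxes were in 32.2% of MPP3 and 30.3% of MPP4 members, since a shorter window is searched. The median member difference (-0.23) ran from -0.22 to -0.14 under the alternatives, and was -0.14 when centered in bins of level and -0.15 when protein-coding genes alone compete. No paired analysis was possible because the tables hold no value per library, and for the same reason leaving out each replicate was not run. Weak peaks, short sequences with copies elsewhere and peak borders set per cell type limit the differences.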

Other observations

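Peaks in the windows of the 10 genes that lay closer to a neighbor included some of the strongest. Beside the *Dnmt3aos* peak (6.99 in MPP3 and 7.52 in MPP4 cells), a peak assigned to *2010008C14Rik* in the *Chd4* window had 5.89 in MPP3 and 5.41 in MPP4 cells. A peak within 1 kb of a *Chd4* start, chr6:125096885-125097204, was assigned to *Mir7045* and had 4.05 in MPP3 and 3.38 in MPP4 cells. The MPP3 peak next to the *Tet2* start that went to *Gm42567* (4.23) overlapped the same MPP4 peak as the *Tet2* promoter peak, and its centered difference, 1.17, compares it with a peak of 1084 bases.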
